A study of Mus musculus with 6 samples.

Results

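RIP-seq data, in which the RNAs that come down with an immune-precipitated protein are sequenced, were examined for 8 imprinted genes. These were the long non-coding RNAs (lncRNAs) Kcnq1ot1, Airn, H19, Meg3, Rian, Mirg and Peg13, together with Igf2, the protein-coding neighbour of H19. They were chosen by name, as lncRNAs of imprinted loci of which several have been reported to bind the polycomb complex, out of 46072 genes in the tables of the single libraries. All 8 have an entry there, and 7 have one of that name in the table of the whole series, which lacks Rian. The names occur 10 times, because Meg3 and Rian each have a further copy on an alternative sequence patch, which was at 0 in every library.

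The libraries came from left ventricles of male mice aged 10 weeks, with 2 mice in each of 3 groups. Sham mice had a saline pump according to the methods and were untreated according to the labels, whereas AngII 4 h and AngII 24 h mice received angiotensin II from an osmotic minipump at 1 mg/kg/min for 4 or 24 h. The labels give the strain as C57BL/6 for 4 libraries but as C57BL/7 for the anti-EZH2 library of AngII 4 h and C57BL/8 for that of AngII 24 h. Each group had an anti-EZH2 library and a normal IgG library, which serves as the background, and each was a pool of 2 RIP products, so every combination of group and antibody had 1 library. There were no replicates. Differences between libraries are therefore described without a test, apart from 1 fit that takes the 3 groups as pairs of antibodies, and group differences cannot be told apart from differences between single libraries. Values are FPKM, which count fragments relative to transcript length and library size, each with the interval that the table of its library gives.

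An imprinted gene is transcribed mainly from the copy inherited from one parent. Kcnq1ot1 and Airn are made from the paternal copy, antisense to Kcnq1 and Igf2r, and are known to silence neighbouring genes in cis with the help of repressive chromatin complexes. H19 is made from the maternal and Igf2, a fetal growth factor, from the paternal copy of the same domain. Meg3, Rian and Mirg are transcribed from the maternal copy of the Dlk1-Dio3 domain and host many small RNAs, and Peg13 lies within Trappc9. EZH2 is the methyltransferase subunit of polycomb repressive complex 2, which places the repressive mark H3K27me3 and is known to bind many RNAs, with a preference for runs of guanine.

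Because of that preference, the guanine runs of the transcripts were counted. The windows below show, for the members with the highest and lowest ratios described later, the stretch of 60 nt with the most guanines in runs. They are from GENCODE M21 (GRCm38, the same assembly as mm10), are read 5′ to 3′ as DNA letters of the transcript, and have every run of 3 or more G in capitals.
Kcnq1ot1 (chr7:143288723-143288782, minus strand): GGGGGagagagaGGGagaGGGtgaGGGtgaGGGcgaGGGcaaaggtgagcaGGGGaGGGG
Airn (chr17:12816579-12816638, plus strand): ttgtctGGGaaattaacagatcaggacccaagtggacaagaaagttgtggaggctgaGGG
H19 (chr7:142578084-142578143, minus strand): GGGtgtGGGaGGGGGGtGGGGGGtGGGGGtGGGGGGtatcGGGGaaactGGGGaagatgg
Meg3 (chr12:109559046-109559105, plus strand): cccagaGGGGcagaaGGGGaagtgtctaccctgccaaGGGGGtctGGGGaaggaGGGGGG
Rian (chr12:109648115-109648174, plus strand): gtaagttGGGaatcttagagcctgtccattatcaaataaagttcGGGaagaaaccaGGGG

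The window of H19 is the first 60 nt of its longest annotated transcript and holds 8 runs with 37 guanines. That of Kcnq1ot1 also holds 8 runs, with 28 guanines, but was picked from a transcript of 93092 nt, whereas the longest annotated isoform of Airn has 1375 nt and its densest window 2 runs. Over whole transcripts, H19 had 25.8 runs per kb, above 98.6% of 13374 annotated lncRNAs, and Meg3 had 17.4, above 88.7%. The median lncRNA had 10.4. Igf2 had 15.5, Mirg 13.3, Peg13 11.9 and Kcnq1ot1 9.96 runs per kb, while Airn with 7.27 and Rian with 5.56 were below most lncRNAs. Clusters of 4 such runs, each within 7 nt of the next, occurred 7 times in Kcnq1ot1 and 2 times each in H19, Meg3 and Igf2, but not in the other members. Such a cluster was present in 7.58% of lncRNAs.

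**Figure D1:**
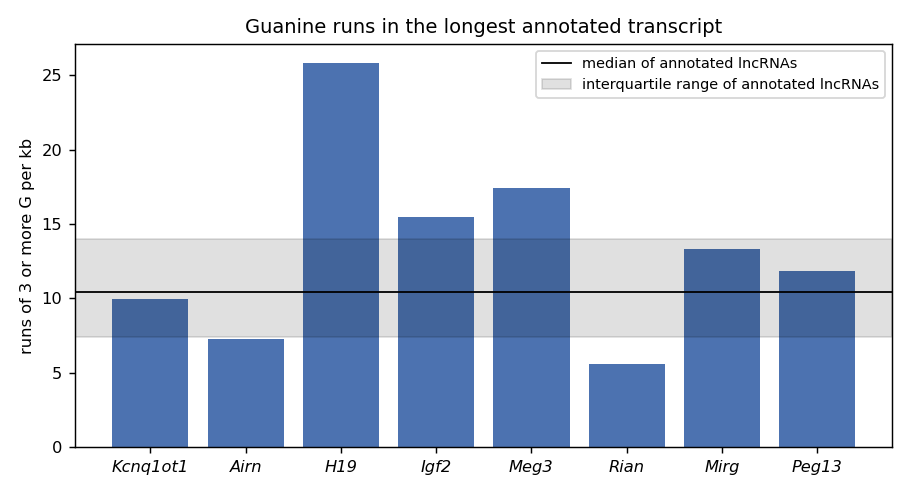
Runs of 3 or more guanines per kb (vertical axis) in the longest annotated transcript of each imprinted gene (bars), with the median (line) and the interquartile range (band) of 13374 annotated lncRNAs. H19 stands highest at 25.8 and Rian lowest at 5.56 runs per kb.

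The inferred depth of the libraries was between 3811491 and 7971646 reads, and between 15003 and 17685 genes were above 0. Ventricular cardiomyocyte markers (7 of 7) were above 1 FPKM in every library, with a summed FPKM between 4773 and 8309, as the labelled tissue requires. Myl7, an atrial myosin light chain, was at 14.3 (IgG) and 12.2 FPKM (anti-EZH2) in the Sham libraries but at most at 0.491 after AngII, while Nppa, the atrial natriuretic peptide gene, was at 20.2 and 10.8 FPKM in Sham, 10.6 and 10.2 in AngII 4 h and 5.14 and 5.36 in AngII 24 h. Sln was at 0. The summed FPKM of the 4 atrial markers was 44.0 and 29.6 in Sham and between 5.36 and 11.7 after AngII, and its part in any difference from Sham was not tested. In AngII 24 h, mitochondrially encoded genes took 31.3% of the FPKM of the anti-EZH2 library and 13.9% of the IgG library, whereas in AngII 4 h they took 6.72% and 13.7%. The median anti-EZH2/IgG ratio of the 4846 genes above 1 FPKM in all libraries was 0.822 in Sham, 0.925 in AngII 4 h and 0.653 in AngII 24 h, and for members, ratios divided by it are given where that changes a direction. Of EZH2's complex, Ezh2 mRNA itself had a ratio of 0.160, 1.13 and 0.319, Eed of 1.87, 0.446 and 0.0554, and Suz12 of 0.234, 0.624 and 1.48 in Sham, AngII 4 h and AngII 24 h. For each of these genes the intervals of the antibodies overlapped in every group. In the series table the ratio of Suz12 was 1.19, 0.883 and 0.517, so its direction turned in Sham and AngII 24 h. Ezh2 and Eed kept their direction there.

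An anti-EZH2/IgG ratio was counted as high above 2 and as low below 0.5, among genes above 0.1 FPKM in either library, and a gene listed at 0 with IgG counted as high. In Sham, Kcnq1ot1 and Airn were high, 2 of 7 members tested, where 26.2% of all genes and 54.1% of annotated lncRNAs were high. Kcnq1ot1 and Mirg were high in AngII 4 h, 2 of 8 members, beside 23% of all genes and 47% of lncRNAs. In AngII 24 h, Airn, Meg3 and Mirg were high, 3 of 7 members, beside 18% and 41%. The low members were Rian in Sham (1 of 7, beside 24.5% of all genes and 24.7% of lncRNAs), H19 in AngII 4 h (1 of 8, beside 20.1% and 27.2%) and H19 and Rian in AngII 24 h (2 of 7, beside 38.9% and 37.5%). The share of high members was thus near that of all genes but below that of lncRNAs in Sham and AngII 4 h. In AngII 24 h it was near that of lncRNAs but above that of all genes. With so few members, these differences were not tested. Single members differed in how steady their direction was. Kcnq1ot1 and Airn were higher with anti-EZH2 in 3 of 3 groups, and H19, Igf2 and Rian were higher with IgG in 3 of 3 groups, which for Igf2 in AngII 24 h did not hold in the series table or after division by the median ratio. Of all 13639 genes tested in each group, 8.28% were higher with anti-EZH2 in 3 of 3 groups and 24.9% were higher with IgG, and of lncRNAs 29% and 10.8%.

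Taking the groups as 3 pairs, a limma fit of log2(FPKM + 0.1) with group as a block was made after seeing the data, over 20261 genes. It pools Sham and AngII and leaves 2 residual degrees of freedom. With Benjamini-Hochberg adjustment 0 of 8 members passed 0.05, with a smallest adjusted p of 0.790, and 3 of all genes passed, each higher with anti-EZH2, with 1105 at an unadjusted p below 0.05. At an unadjusted p below 0.05 there were 3 members, Airn with a log2 difference of 2.93 ± 1.07 (SE), H19 with -1.23 ± 0.374 and Rian with -1.48 ± 0.535. The difference of Airn depends on the added 0.1, since its IgG level in Sham was listed at 0. Kcnq1ot1, whose level is near the added 0.1, had 0.80 ± 0.580.

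**Figure D2:**
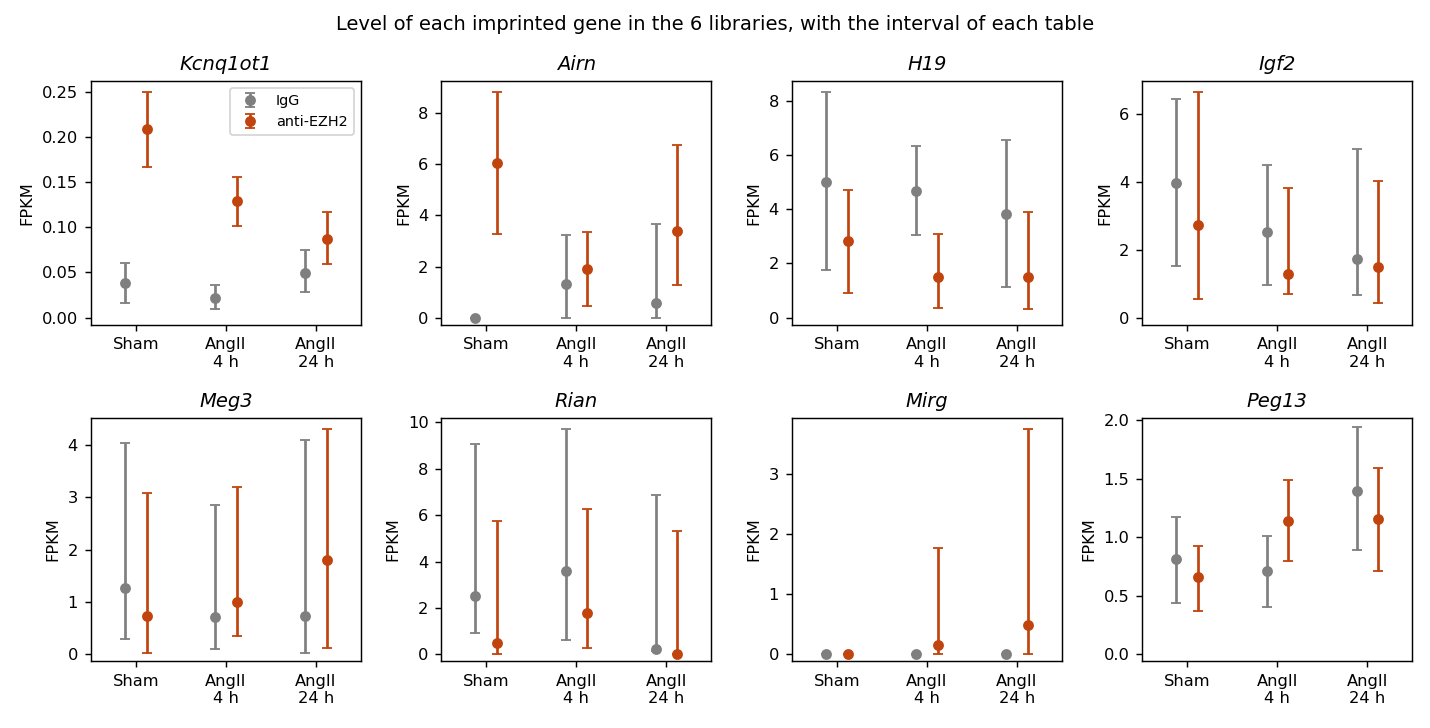
FPKM (vertical axis, a scale of its own for each gene) of the 8 imprinted genes in Sham, AngII 4 h and AngII 24 h, with IgG (grey) and anti-EZH2 (orange). Points are single libraries and bars the interval given in its table. The intervals are apart between the antibodies for Kcnq1ot1 in Sham and AngII 4 h and for Airn in Sham, where the IgG interval is listed as 0 to 0.

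**Figure D3:**
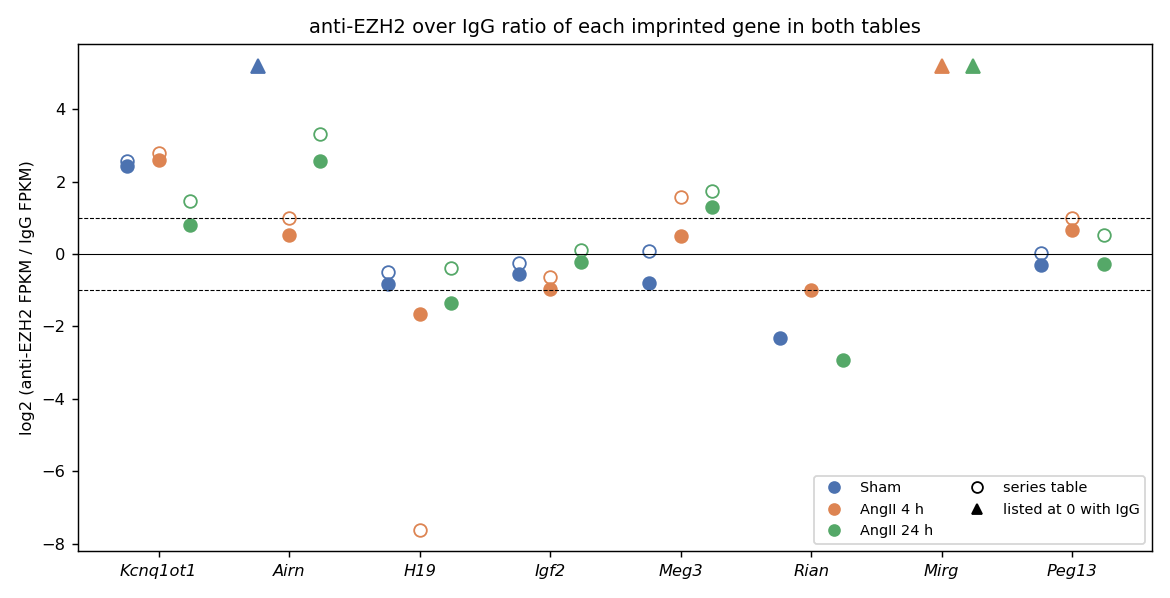
Ratio of anti-EZH2 to IgG FPKM on a log2 axis for each imprinted gene and group, from the tables of the single libraries (filled) and the series table (open). Triangles mark genes listed at 0 with IgG and have no ratio, and dashed lines mark 2-fold. Kcnq1ot1 lies above 0 in every group and Airn in both AngII groups, and the open point of H19 in AngII 4 h lies far below the rest.

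By the intervals of the tables, the clearest excess with anti-EZH2 was that of Kcnq1ot1. It is annotated as 1 exon on the minus strand of chromosome 7 (143212155 to 143296549 in the tables, 84395 nt), within and antisense to Kcnq1, which encodes a cardiac potassium channel. Its FPKM with IgG was 0.0384 in Sham, 0.0215 in AngII 4 h and 0.0498 in AngII 24 h, and with anti-EZH2 0.209, 0.129 and 0.0867. These levels are low per length, but the transcript is so long that they stood for about 14, 9 and 16 reads with IgG and 100, 86 and 35 reads with anti-EZH2. The inferred values in AngII 4 h lay between whole numbers (9.49 and 86.5), so its reads and interval are approximate. Every anti-EZH2 library was above every IgG library. The ratio was 5.44 in Sham (exact 95% Clopper-Pearson interval 3.09 to 10.3) and 6.00 in AngII 4 h (3.16 to 14.2), with the intervals of the tables apart in both groups. In AngII 24 h the ratio was 1.74 (0.941 to 3.38), both libraries were below 0.1 FPKM, and the intervals of the tables overlapped. These intervals cover counting error only and compare libraries, not conditions. Divided by the median ratio, the values were 6.62, 6.49 and 2.67, and those from the series table were 5.94, 6.92 and 2.75, so that the excess in AngII 24 h crossed 2-fold under either choice. With a pseudocount of 0.1 FPKM, close to its own level, they were 2.23, 1.88 and 1.25, which ended the call in AngII 4 h. Its AngII 4 h level in the series table was 0.0928 FPKM, below the minimum of 0.1. Among lncRNAs of 1 exon, 58.9% were high in Sham, 51.3% in AngII 4 h and 45.3% in AngII 24 h.

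Over the time after AngII, Kcnq1ot1 with anti-EZH2 was 0.617 times its Sham level at 4 h (0.455 to 0.828) and 0.415 times at 24 h (0.276 to 0.619). Its IgG levels were 0.559 times (0.202 to 1.31) and 1.30 times Sham (0.593 to 2.87), so that the lower ratio in AngII 24 h went with a lower anti-EZH2 level and an IgG level not distinguishable from Sham at this depth. Kcnq1, on the opposite strand, had 1.55, 2.49 and 2.23 FPKM with IgG and 1.05, 2.45 and 1.11 with anti-EZH2, ratios of 0.679, 0.985 and 0.497. The series table gave Kcnq1 a ratio of 1.49 in AngII 4 h. The kit keeps the strand of an RNA, but whether reads were counted by strand is not given in the sources used here, and without strand Kcnq1ot1 cannot be told apart from unspliced Kcnq1 RNA.

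Airn was listed at 0 with IgG in Sham and at 6.05 FPKM with anti-EZH2 (interval 3.28 to 8.82), the highest level of any member in any library. It lies on the plus strand of chromosome 17 (12741311 to 12860122), and its 5′ part overlaps Igf2r by 28354 nt on the opposite strand. In AngII 4 h it had 1.32 FPKM with IgG and 1.89 with anti-EZH2, and in AngII 24 h 0.575 and 3.39. All 3 anti-EZH2 values were above all IgG values, but the intervals were apart only in Sham. There the IgG interval was listed as 0 to 0, which holds no counting error, so any lower limit above 0 would be apart from it. The IgG intervals in AngII 4 h and AngII 24 h were 0 to 3.24 and 0 to 3.66. The ratios were 1.43 in AngII 4 h and 5.89 in AngII 24 h, and none is given for Sham. If all reads came from the longest annotated isoform, the most reads these values can stand for were 0 and 41 in Sham, 8 and 18 in AngII 4 h and 3 and 19 in AngII 24 h. The exact intervals of the ratio were then 0.613 to 3.94 in AngII 4 h and 1.49 to 26.7 in AngII 24 h. These are the narrowest possible for GENCODE M21 lengths, since fewer reads would give wider intervals. The read limits of members below rest on the same lengths, as the annotation behind the FPKM is not given in the sources used here. Airn in the series table was also at 0 with IgG in Sham and had ratios of 2.00 and 9.93. With anti-EZH2 it was 0.313 times its Sham level at 4 h and 0.560 times at 24 h. GENCODE M21 holds spliced isoforms of Airn alone, and how reads of the long unspliced transcript were counted is not given in the sources used here.

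Igf2r, the mannose 6-phosphate receptor that takes up IGF2 and is the gene Airn silences on the paternal copy, was lower with anti-EZH2 in each library pair. It had 28.8, 10.8 and 10.1 FPKM with IgG and 13.3, 5.15 and 3.30 with anti-EZH2, ratios of 0.464, 0.476 and 0.327. Its ratios in the series table were 1.26, 0.296 and 1.20, so the direction turned in Sham and AngII 24 h. Its levels after AngII were between 0.247 and 0.386 times Sham over both antibodies. Airn with IgG went from a listed 0 to values above 0 in the same libraries. With anti-EZH2, Airn was 0.313 and 0.560 times its Sham level. A link between Airn and Igf2r was not tested.

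H19 was lower with anti-EZH2 than with IgG in each group. It lies on the minus strand of chromosome 7 (142575529 to 142578143) and is a spliced lncRNA, abundant in the fetus and low in the adult heart. Its FPKM was 5.00, 4.67 and 3.83 with IgG and 2.81, 1.49 and 1.49 with anti-EZH2, and all IgG values were above all anti-EZH2 values. The ratio was 0.561 in Sham, 0.319 in AngII 4 h and 0.389 in AngII 24 h. The intervals of the tables overlapped in every group, by the least in AngII 4 h, with 3.03 to 6.32 for IgG and 0.361 to 3.07 for anti-EZH2. H19 stood at most for 45, 51 and 30 reads with IgG and 33, 25 and 15 with anti-EZH2. For these upper limits the exact intervals of the ratio were 0.344 to 0.893, 0.192 to 0.531 and 0.200 to 0.765. They are the narrowest possible for GENCODE M21 lengths, and the true intervals may be wider and hold 1. Divided by the median ratio it was 0.682, 0.345 and 0.597, and so no longer below 0.5 in AngII 24 h. With anti-EZH2 it was 0.531 times Sham at 4 h and 0.532 times at 24 h, and with IgG 0.934 and 0.765 times.

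The tables did not agree on H19. In the series table it had 1.56, 86.4 and 1.89 FPKM with IgG and 1.11, 0.440 and 1.45 with anti-EZH2, so that the IgG library of AngII 4 h alone was 55.5 times Sham. In the table of that single library, the microRNA gene Mir675, which lies within H19 (chr7:142577064-142577147), had 224 FPKM with an interval from 0 to 626, and it was at 0 in the other 5. The series table has no entry named Mir675. Whether the high value of H19 there holds these reads was not tested. The mature products of Mir675 (RefSeq, GRCm38.p6) are shown with the seed, bases 2 to 8, in capitals, since this was the single hosted small RNA above 0.
miR-675-5p (chr7:142577112-142577133, minus strand): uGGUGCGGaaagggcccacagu
miR-675-3p (chr7:142577078-142577099, minus strand): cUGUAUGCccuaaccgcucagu

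Igf2, which is controlled together with H19, stayed near or below 1 in its ratio. It lies on the minus strand of chromosome 7 (142650766 to 142666816) and had 3.97, 2.51 and 1.73 FPKM with IgG and 2.73, 1.28 and 1.497 with anti-EZH2. The ratio was 0.688 in Sham, 0.510 in AngII 4 h and 0.866 in AngII 24 h, and turned to 1.33 in AngII 24 h when divided by the median ratio and to 1.08 in the series table. The intervals of the tables overlapped in every group. The Sham library was the highest with each antibody, and after AngII the level was 0.633 and 0.436 times Sham with IgG and 0.469 and 0.548 times with anti-EZH2. In the series table the folds at 24 h were nearer to 1 (0.667 and 0.851). Of the other genes of the domain fixed for description, 2 of 8 were above 1 FPKM in any library. Mrpl23, a mitochondrial ribosomal protein, had ratios of 1.06, 1.29 and 0.281, and Lsp1, a leukocyte actin-binding protein, 0.368, 0.563 and 1.54.

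Meg3 changed sides between the groups. It lies on the plus strand of chromosome 12 (109541001 to 109571726), with 11 annotated transcripts. Its FPKM with IgG was 1.27, 0.717 and 0.734, and with anti-EZH2 0.728, 1.00 and 1.80. IgG was higher in Sham, and anti-EZH2 was higher in both AngII groups. The ratio was 0.575 in Sham, 1.40 in AngII 4 h and 2.46 in AngII 24 h, with wide intervals that overlapped in every group, as 0.0183 to 4.09 for IgG and 0.116 to 4.30 for anti-EZH2 in AngII 24 h. At most 79, 54 and 40 reads with IgG and 60, 115 and 123 with anti-EZH2 stood behind these values, if all came from the longest transcript (14548 nt). The exact intervals of the ratio were then 0.405 to 0.817, 1.01 to 1.98 and 1.71 to 3.60. They are the narrowest possible for GENCODE M21 lengths, and the true intervals may be wider and hold 1. Dividing by the median ratio gave 0.700, 1.52 and 3.76. In the series table the ratio was 1.05, 3.00 and 3.34, and there it was not below 1 in Sham. The level with anti-EZH2 at 24 h was 2.47 times Sham, or 4.39 times in the series table, beside 20.3% of all genes above 2 in that comparison, and with IgG it was 0.579 times (1.38 times in the series table).

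Rian, downstream of Meg3 on the same strand (109603940 to 109661716), was lower with anti-EZH2 in each group. It hosts a cluster of box C/D small nucleolar RNAs. It had 2.53, 3.58 and 0.243 FPKM with IgG and 0.505, 1.80 and 0.0319 with anti-EZH2, ratios of 0.200, 0.502 and 0.131. Both libraries of AngII 24 h were the lowest of their antibody, at 0.0963 and 0.0632 times Sham, where 20% and 32.8% of all genes were below 0.5. The intervals of the tables overlapped in every comparison, and the highest reached 9.71 FPKM (AngII 4 h, IgG). In AngII 24 h the values stood at most for 7 reads with IgG and 1 with anti-EZH2, for which the exact interval of the ratio was 0.00253 to 0.888. For Sham, with at most 86 and 23 reads, it was 0.122 to 0.325. Both are the narrowest possible for GENCODE M21 lengths, and the true intervals may be wider and hold 1.

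No entry of the series table is named Rian. Gm27350, a short RNA gene of 98 nt on the same strand that shares its last 40 nt with the start of Rian, had 2.06, 1.99 and 0.0908 FPKM with IgG and 0.458, 1.21 and 0 with anti-EZH2 there, and was at 0 in each of the single tables. These values had the same order as those of Rian with anti-EZH2, while with IgG Sham and AngII 4 h were in the reverse order, and whether that entry holds the reads of Rian was not tested.

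Mirg, the microRNA host further downstream on chromosome 12 (109729764 to 109749460), was at 0 in every IgG library and in Sham with anti-EZH2. With anti-EZH2 it had 0.147 FPKM in AngII 4 h (interval 0 to 1.77) and 0.484 in AngII 24 h (0 to 3.75), from at most 4 and 8 reads. Each interval reached 0. The series table also had it above 0 in those 2 libraries alone, at 0.0740 and 0.498. The listed levels of the 3 lncRNAs of the domain thus did not follow the same order over the libraries. In AngII 24 h with anti-EZH2, Meg3 and Mirg had their highest level and Rian its lowest, at most 1 read. The intervals there were wide, 0.116 to 4.30 for Meg3, 0 to 3.75 for Mirg and 0 to 5.30 for Rian, and a difference was not tested. The protein-coding genes of the domain (4 genes, among them Dlk1, a Notch-like ligand, and Dio3, which inactivates thyroid hormone) were not above 1 FPKM in any library.

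Peg13 is a transcript of 1 exon (4725 nt) on the minus strand of chromosome 15 (72805600 to 72810324). It had 0.817, 0.715 and 1.39 FPKM with IgG, from 16, 17 and 24 reads, and 0.659, 1.14 and 1.16 with anti-EZH2, from 17, 41 and 25 reads. The ratio was 0.807 (exact interval 0.383 to 1.71), 1.59 (0.882 to 2.98) and 0.831 (0.456 to 1.52), each interval with 1 inside, and the value in AngII 24 h turned to 1.27 when divided by the median ratio. The series table had 1.03, 1.98 and 1.45. A difference between the antibodies was not detectable at this depth. With anti-EZH2 Peg13 was 1.72 times Sham at 4 h (0.957 to 3.23) and 1.75 times at 24 h (0.910 to 3.46). Trappc9, the trafficking protein gene around it, had ratios of 0.795, 0.810 and 0.777, or 0.877, 1.03 and 1.30 in the series table. It is on the same strand, so reads of its introns could be counted to Peg13.

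**Figure D4:**
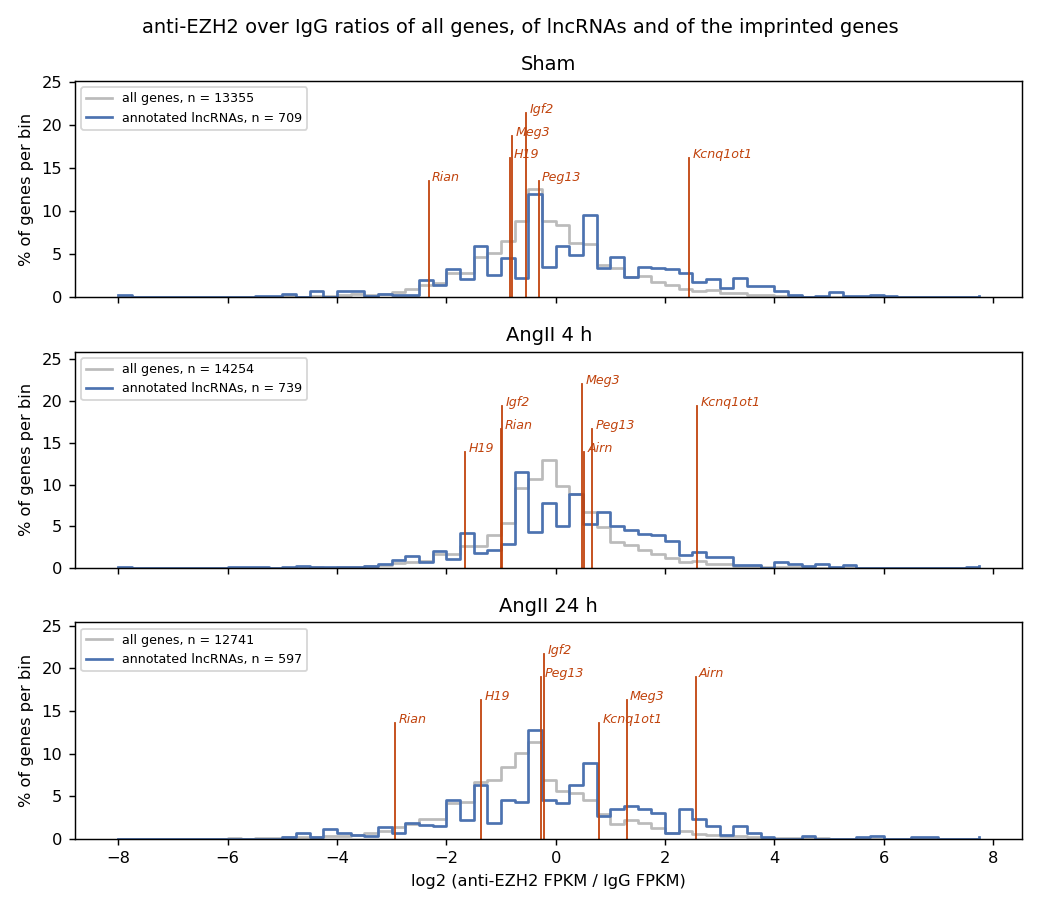
Distribution of the log2 ratio of anti-EZH2 to IgG FPKM in each group (percent of genes per bin of 0.25) for all genes and for annotated lncRNAs above 0 in both libraries, with the imprinted genes as vertical lines. The distributions hold genes above 0.1 FPKM in either library and leave out those at 0 with IgG, which the text counts as high. Among the genes drawn, Kcnq1ot1 lies in the upper tail in Sham and AngII 4 h, Airn in AngII 24 h, and Rian in the lower tail in Sham and AngII 24 h.

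**Figure D5:**
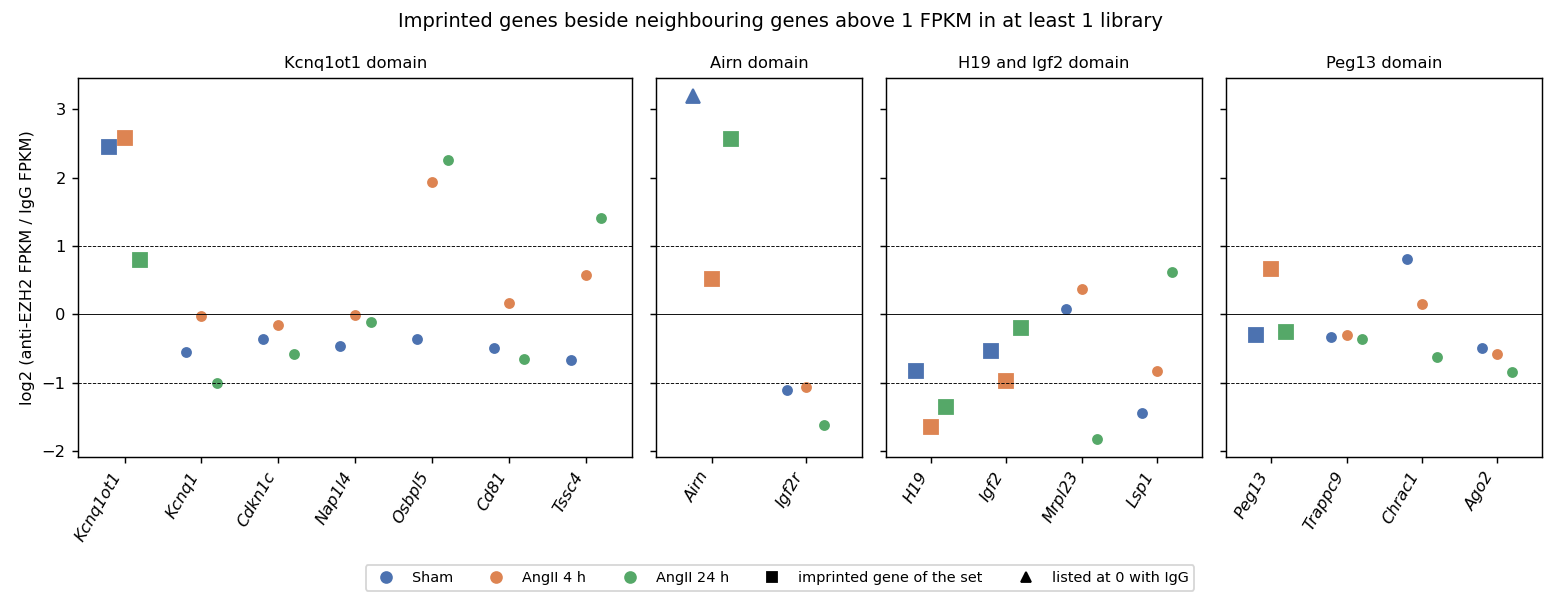
The log2 ratio of anti-EZH2 to IgG FPKM of imprinted genes (squares) beside neighbouring genes above 1 FPKM in any library (circles) in 4 domains, coloured by group. Kcnq1ot1 lies above its antisense partner Kcnq1 in every group, Airn lies above Igf2r in AngII 4 h and AngII 24 h and has no ratio in Sham (triangle), and Trappc9 lies close to 0.

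After AngII, the members did not move together, and both folds of an antibody share its Sham library. With IgG, Airn was above 2-fold of Sham at both times, from a listed 0 (1 of 6 members tested each time, beside 28.8% and 29.8% of all genes), and Igf2 and Rian were below 0.5 at 24 h (2 of 6, beside 20%), with 0 of 6 at 4 h (beside 19.7%). With anti-EZH2, Mirg and Rian were above 2-fold at 4 h (2 of 8, beside 29.7%) and Meg3 and Mirg at 24 h (2 of 8, beside 20.3%). Igf2 and Airn were below 0.5 at 4 h (2 of 8, beside 20.1%), and Kcnq1ot1 and Rian at 24 h (2 of 8, beside 32.8%). With so few members, none of these counts was far from the share of all genes. In whole ventricle, fewer cells of a type and less RNA per cell cannot be told apart.

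Of 31 neighbouring genes fixed for description, 12 were above 1 FPKM in any library. Among those tested, 2 were high and 4 low of 16 in Sham, 2 and 1 of 14 in AngII 4 h, and 4 and 4 of 15 in AngII 24 h. The shares of all genes were 26.2% and 24.5%, 23% and 20.1%, and 18% and 38.9%. Beside Kcnq1ot1, Cdkn1c, a cell cycle inhibitor that Kcnq1ot1 is known to silence on the paternal copy, had 0.401, 1.58 and 1.86 FPKM with IgG and 0.311, 1.41 and 1.24 with anti-EZH2. Both Sham libraries were the lowest, but the Sham interval with IgG (0 to 1.07) overlapped those of both AngII groups. With anti-EZH2 it overlapped that of AngII 24 h. A link to Kcnq1ot1 was not tested. The ratios of Cdkn1c were between 0.665 and 0.893, but 1.11, 1.09 and 1.10 in the series table. Cd81, a tetraspanin, had ratios of 0.707, 1.12 and 0.637. Neither was past 2-fold. Of 46 other imprinted genes, 45 were in the tables, with 5 high and 9 low of 34 in Sham, 4 and 9 of 37 in AngII 4 h, and 8 and 12 of 35 in AngII 24 h, to be read against the same shares of all genes. Ranked by groups with both libraries above 1 FPKM, the 3 farthest from 1 were Commd1, H13 and Jade1. Commd1 had 0.715, 0.882 and 0.164, H13 1.23, 1.06 and 0.229, and Jade1 0.222, 0.129 and 2.44. Without that minimum some ratios were farther from 1, both low (Ppp1r9a, 0.0294 in AngII 4 h) and high (Usp29, 8.63 in Sham).

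In the insulin-like growth factor pathway, without Igf2, 14 of 18 genes were tested in each group. In Sham 2 were high and 3 low, beside 26.2% and 24.5% of all genes. The counts were 2 and 3 in AngII 4 h, beside 23% and 20.1%, and 1 and 8 in AngII 24 h, beside 18% and 38.9%. Igfbp3, which carries IGFs in the circulation, had a ratio of 1.77, 0.846 and 0.479, and Igfbp5, a binding protein of the extracellular matrix, 0.829, 0.580 and 0.429. Igf2r is described with Airn. Ins2 and the mRNA-binding protein gene Igf2bp1 were at 0 in every library.

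The annotation places 35 small RNA genes within the members on the same strand, of which 22 are microRNAs and 13 small nucleolar RNAs. All 35 have an entry in the tables of the single libraries. Mir675 in the IgG library of AngII 4 h was the only one above 0 in any library. The 17 small RNAs within Rian and the 14 within Mirg were thus listed at 0, also where their hosts were above 0. A listed 0 does not show that a small RNA was absent. Mir675 spans 84 nt, less than the mean fragment of 200 nt taken for depth, and its 0 in Sham with IgG had an interval up to 5.50 FPKM.

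The genes most alike to each member over the 6 libraries were taken from the 4846 genes above 1 FPKM in all of them, by Pearson's r of log2 FPKM. As the highest of so many values over so few libraries, which share mice within a group, they are a description with no p. For Kcnq1ot1 they were Gm37701, RP24-274B10.1 and Gm37471 (0.974, 0.971 and 0.971), of which the first and second are annotated as unconfirmed transcripts. Those of H19 included Arl5a and Gm8399 (0.973 and 0.970), and those of Igf2 were Sod3, Gm26917 and Plekho1 (0.990, 0.981 and 0.974). Meg3 had Atf7, Ets1 and Chmp2b (0.973, 0.966 and 0.935). For Rian they were Mybbp1a, Casq2 and S100a13 (0.996, 0.996 and 0.990), and for Peg13 they included Tns1 and Setd8 (0.978 and 0.964).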

How the data were processed

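Left ventricle RIP-seq libraries (6, 1 for each group and antibody, each of 2 mixed RIP products) were analysed as deposited. The authors made stranded libraries, used TopHat2 for mapping to mm10, and deposited FPKM both as 1 table for each library, with intervals, and as a series table. The program that made the FPKM, its annotation and its use of strand are not given in the sources used here. The tables of the single libraries were used, with 787 values below 0.001 FPKM set to 0 and entries of the same Ensembl ID summed. The series table was set beside them. The 8 members and all lists were chosen with earlier results of these data known. Besides the members, up to 3 genes of a list were named, those with the ratio farthest from 1 among genes above 1 FPKM in both libraries, with Ezh2, Eed, Suz12 and the 3 genes most alike to each member, of which some are not reported here.

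Ratios had no pseudocount. Depth was inferred from 6745 genes with 1 transcript of at least 1000 nt and a mean fragment of 200 nt. Between 73.0% and 76.4% of low values were whole reads to within 0.1 reads. The layout of the reads is not given here, so a read may be 1 mate of a pair. Reads of Kcnq1ot1 and Peg13 are inferred values rounded to whole reads, and those of Kcnq1ot1 in AngII 4 h lay between whole numbers (9.49 and 86.5). For other members they are upper limits from the longest GENCODE M21 transcript, so their exact intervals are the narrowest possible for that length. A longer transcript in the annotation behind the FPKM would give more reads. Reads without molecular identifiers are not independent molecules, so intervals cover counting error only. With 1 library per combination no SD or test was used within a group. Antibodies were also compared over the 3 groups with limma 3.58.1 (R 4.3.3). The scripts (scipy 1.17.1, pandas 2.3.3, numpy 2.4.6, matplotlib 3.10.9, Python 3.11.15) were tested on simulated data. The deposited FPKM of a library depends on its other RNAs, such as mitochondrial ones, so alternative scalings, pseudocounts, minimums, thresholds and the series table were tried.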

Additional observations from a re-analysis of the deposited data

Results flagged for a closer look

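Meg3 moved in opposite directions between groups: its anti-EZH2/IgG ratio was 2.46 in AngII 24 h and 0.575 in Sham. With 1 library for each antibody and group, the difference was not tested. In the series table the ratio was 3.34 and 1.05.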

How the results depend on the processing

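Of 60 recomputed counts of high or low members, 39 stayed within 1.5 times the reported count, though in AngII 4 h the 2 high members were Airn and Meg3 in the series table, not Mirg and Kcnq1ot1. Requiring FPKM above 1 gave 1 high member in Sham (2 reported), 0 in AngII 4 h (2 reported) and 1 low member in AngII 24 h (2 reported). A pseudocount of 1 gave 1, 0 and 1 high members in Sham, AngII 4 h and AngII 24 h (2, 2 and 3 reported) and 0 low members in AngII 24 h, and a pseudocount of 0.1 gave 1 high member in AngII 4 h, without Kcnq1ot1. The series table, which lacks Rian, had 0 low members in Sham and in AngII 24 h. A 1.5-fold threshold gave 3 low members in Sham and in AngII 4 h (1 reported each), and a 4-fold threshold 0 in AngII 4 h and 1 in AngII 24 h. With intervals apart, 1 high member (Kcnq1ot1) was left in AngII 4 h and 0 in AngII 24 h, and 0 low members were left in each group. Dividing by the median ratio, and rescaling without mitochondrially encoded genes and genes under 300 nt, each left 1 low member in AngII 24 h, Rian. The last choice was made after seeing the data, in place of one that needed lengths in the tables. Of 197 recomputed values of single members, 157 stayed within their exact interval or 1.5 times, and no called ratio or fold turned to the other side of 1. The causes of these shifts were not tested. The fit with group as a block, also added then, called 0 of 8 members, and no replicate numbers pair libraries within a group. Depth limits Rian in AngII 24 h, Mirg, and Airn with IgG the most.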
